A study of Mus musculus with 8 samples.

Results

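The genes described here encode the machinery of oxidative phosphorylation, and they were taken from a mouse liver expression table in FPKM, the fragments of a gene scaled by its transcript length and by the library's total. Members were the rows named as subunits of complexes I to V (Nduf, Sdh, Uqcr, Cox4 to Cox8 and Atp5 names, and the mitochondrial mt-Nd, mt-Co, mt-Cytb and mt-Atp genes) that reached an FPKM of 1 in at least 2 of the 8 libraries. Of 55487 rows, 120 had such a name. Names marked -ps were left out (9 rows), 8 rows stayed under the FPKM minimum, and 103 genes remained: 90 encoded in the nucleus and the 13 protein genes of the mitochondrial genome. For comparison, 11514 genes of the table passed the same FPKM minimum.

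The libraries came from whole liver of male wild-type C57BL/6N mice. All animals received a weekly intraperitoneal injection, either of carbon tetrachloride (CCl4, a liver toxicant) or of its corn oil vehicle. Food was either normal chow, with tap water to drink, or a western diet made up of high-fat food and a sugar drink of 23.1 g/L fructose and 18.9 g/L glucose. Normal diet + oil had 3 libraries and western diet + oil had 2. Normal diet + CCl4 had 2 libraries and western diet + CCl4 a single one. The sources used here do not give the animals' ages, the CCl4 dose or the length of treatment.

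Oxidative phosphorylation takes electrons from NADH through complex I and from succinate through complex II, passes them by way of ubiquinone, complex III, cytochrome c and complex IV to oxygen, and uses the resulting proton gradient to make ATP in complex V. Complexes I, III, IV and V are built from parts of different origin: a few hydrophobic core proteins are encoded by mitochondrial DNA, and the remaining subunits are encoded in the nucleus and imported. Complex II is encoded in the nucleus alone. Hepatocytes are rich in mitochondria, and the pathway supplies the ATP for their synthetic and detoxifying work.

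By role, 90 of the 103 members were subunits. Complex I held 43 members, of which 7 were nuclear core subunits, 29 nuclear accessory subunits and 7 mitochondrial core subunits. Complex II held 4, complex III 9 (8 nuclear and mt-Cytb), complex IV 15 (12 nuclear, counting Ndufa4 here, and 3 mitochondrial) and complex V 19 (17 nuclear and 2 mitochondrial). The name rule also took in 8 complex I assembly factors (Ndufaf1 to Ndufaf8), which help to build the complex without staying in it, and 5 paralogs or gene copies (Ndufa4l2, Cox7a2l, Cox6c2, Ndufb4c and Ndufs6b). Of these, Cox6c2, Ndufb4c and Ndufs6b are annotated as processed pseudogenes in GENCODE M21, and reads of such near-identical copies may have been shared with their parent genes.

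Several tissue-specific forms of complex IV subunits were near or at 0, although Cox7a1, the heart and muscle form of subunit 7a, was above 1 FPKM in all 8 libraries, and the hepatocyte marker genes were high in every library. Cox8b, Cox8c and Cox7b2 were listed at 0 in all 8 libraries, as were Ndufa11b and a second row named Atp5o. Cox6a2, the muscle form of subunit 6a, reached at most 0.69 FPKM. Cox4i2, known as the lung form of subunit 4, was above 0 in a single library (0.47, western diet + oil 2), and Cox6b2, the testis form of 6b, in a single library too (1.93, normal diet + CCl4 1), which placed it just outside the rule. Just inside it were Ndufs6b, at 1 FPKM or more in 7 libraries, and Ndufa4l2, in 6; 101 members were at or above 1 in all 8. All 8 hepatocyte markers examined were above 0 in every library, with a summed FPKM of 30201 to 53886, and 6 of 7 muscle markers were at 0 in all of them.

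The mitochondrial genome packs its protein genes tightly, and 2 pairs of members share bases. The stretches are shown because 2 of the genes that varied most between libraries, mt-Nd4l and mt-Atp8, lie in them, so fragments there can belong to either gene. The sequences below were read from GENCODE M21 transcripts (GRCm38, plus strand), with 24 bases on each side and the shared bases in capitals, at chrM:7903-7993 and chrM:10143-10197.
mt-Atp8 and mt-Atp6: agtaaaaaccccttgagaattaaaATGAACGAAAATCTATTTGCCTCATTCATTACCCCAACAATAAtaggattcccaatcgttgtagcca
mt-Nd4l and mt-Nd4: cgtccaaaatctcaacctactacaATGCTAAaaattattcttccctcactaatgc
The first overlap is 43 bases long, 21.1% of the 204 bases of mt-Atp8. The second is 7 bases, 2.36% of the 297 bases of mt-Nd4l. In addition, mt-Nd5 and mt-Nd6 overlap by 14 bases on opposite strands. The library kit keeps the strand of the RNA, but the sources used here do not say whether strand was used in quantification.

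Nuclear members sit on 19 chromosomes, and their promoters were searched for 3 strings bound by factors known to act on respiratory genes: GCGCATGCGC for NRF1, CCGGAAG for ETS-family factors such as GABP, and AAGATGGC for YY1. Each string was sought on both strands of the RefSeq promoters (GRCm38.p6, 250 bases before to 50 after each gene's start), which held 77 promoters for 72 of the 90 nuclear members. The NRF1 string was present in 7 of them, which is 9.09%, against 0.971% of all 32851 promoters of that length. The ETS string was present in 19, which is 24.7% against 8.86%, and the YY1 string in 10, which is 12.99% against 2.75%. The TATA string TATAAA was present in 7, which is 9.09% against 13.6%. Matches of different strings did not overlap in any member's promoter, and 40 of the 72 genes had none of the NRF1, ETS and YY1 strings in this window. A match is a string of letters and was not tested for binding.

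The bases before the start of 2 members are shown as examples, an NRF1 match 113 bases before the start of the assembly factor gene Ndufaf4 (chr4:24897833-24898082, plus strand) and an ETS match 232 bases before the start of the complex I accessory gene Ndufb6 (chr4:40279422-40279671, minus strand), with the matches in capitals. Ndufaf4 is shown because its CCl4 value, given below, was among the highest of the members.
Ndufaf4: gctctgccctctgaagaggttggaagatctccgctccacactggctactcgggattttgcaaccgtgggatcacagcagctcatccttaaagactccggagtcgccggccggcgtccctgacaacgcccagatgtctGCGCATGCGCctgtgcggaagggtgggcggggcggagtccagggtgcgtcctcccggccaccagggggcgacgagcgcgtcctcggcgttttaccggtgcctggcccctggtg
Ndufb6: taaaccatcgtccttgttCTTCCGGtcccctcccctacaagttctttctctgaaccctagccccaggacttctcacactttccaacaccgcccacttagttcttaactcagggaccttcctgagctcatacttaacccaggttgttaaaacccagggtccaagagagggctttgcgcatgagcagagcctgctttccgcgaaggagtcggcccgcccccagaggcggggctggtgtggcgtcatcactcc

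Transcripts from the mitochondrial genome far exceeded those of nuclear subunits. The mean over the 8 libraries ranged from 875 FPKM for mt-Nd4l to 11150 FPKM for mt-Co1, with a median of 5050 over the 13 genes, while the nuclear members had a median of 94.7 FPKM and none exceeded 391. By mean FPKM, mt-Co1, the catalytic subunit of complex IV, ranked 3 of the 11514 genes and mt-Cytb of complex III ranked 10. Among nuclear genes, Cox4i1, a complex IV subunit, and Atp5b, the catalytic beta subunit of complex V, were highest with 391 FPKM each. Median levels of nuclear subunits were 65.9 FPKM in complex I, 96.0 in complex II, 147 in complex III, 172 in complex V and 244 in complex IV. The assembly factors stood far lower, with a median of 7.62 FPKM.

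The 13 mitochondrial genes made up 10.4, 10.3 and 10.4% of all FPKM in the normal diet + oil libraries 1, 2 and 3. The share was 11.9 and 8.97% in western diet + oil, 11.1 and 11.3% in normal diet + CCl4, and 8.70% in western diet + CCl4. The nuclear members made up 1.99, 1.58 and 1.24% in normal diet + oil, 1.91 and 2.098% in western diet + oil, 2.11 and 2.21% in normal diet + CCl4, and 1.85% in western diet + CCl4. The mitochondrial share varied little among the control libraries (mean 10.4% ± 0.0596, SD, n = 3), while the nuclear share varied more among them (mean 1.60% ± 0.377, SD, n = 3) and its lowest values were 2 of the controls. The ratio of the mitochondrial to the nuclear sum was 5.21, 6.52 and 8.43 in normal diet + oil, 6.22 and 4.27 in western diet + oil, 5.26 and 5.11 in normal diet + CCl4, and 4.70 in western diet + CCl4. The ratio of western diet + CCl4 lay below all 3 controls, and the other treated groups overlapped with them.

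**Figure D1:**
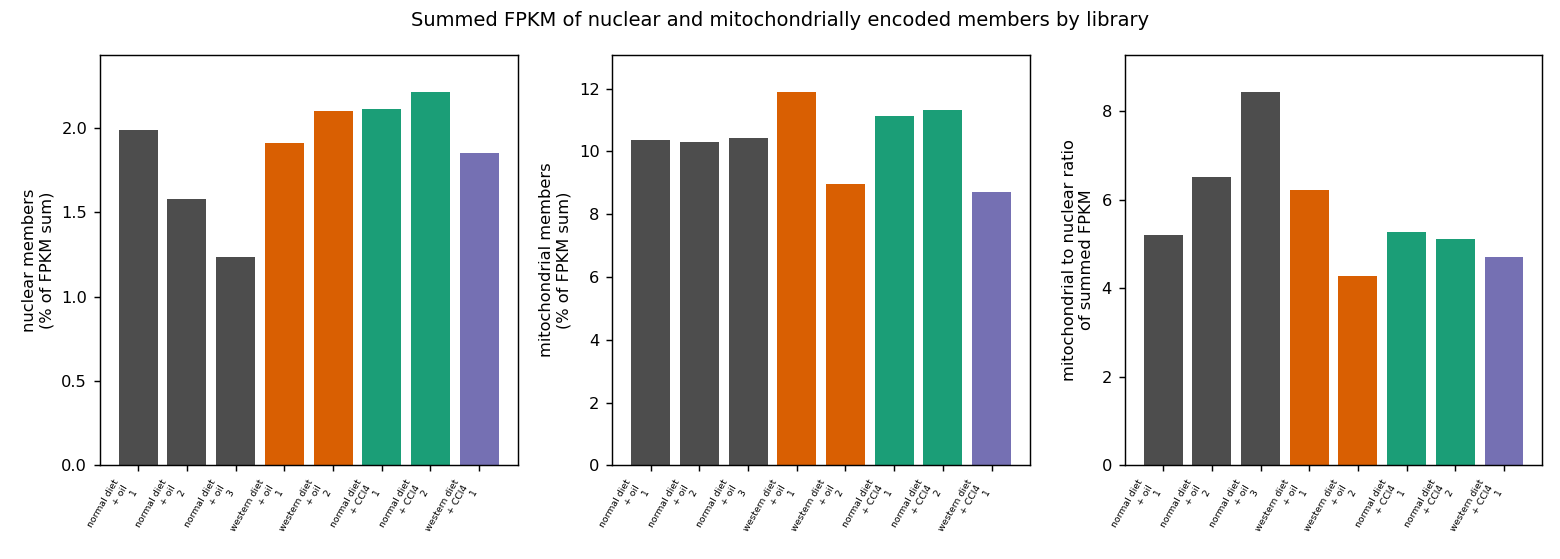
Bars give, for each of the 8 libraries, the summed FPKM of the 90 nuclear members (left) and the 13 mitochondrially encoded members (middle) as a percent of all FPKM, and the ratio of the mitochondrial to the nuclear sum (right). Colours mark the 4 groups; the control libraries run from 5.21 to 8.43 in the ratio, and western diet + CCl4 is at 4.70.

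FPKM is a share of the library, and the most abundant secreted-protein genes differed between libraries. The major urinary protein (Mup) genes took 16.9, 22.1 and 32.5% of all FPKM in normal diet + oil 1, 2 and 3, 9.16 and 10.04% in western diet + oil, 2.80 and 4.65% in normal diet + CCl4 and 8.22% in western diet + CCl4. With Mup genes left out of the sum, the nuclear members made up 2.39, 2.03 and 1.83% in normal diet + oil, 2.11 and 2.33% in western diet + oil, 2.17 and 2.32% in normal diet + CCl4 and 2.01% in western diet + CCl4. The 3 control libraries then spanned all the treated ones. On the same base the mitochondrial share was 12.5, 13.2 and 15.4% in normal diet + oil, 13.1 and 9.97% in western diet + oil, 11.4 and 11.9% in normal diet + CCl4 and 9.48% in western diet + CCl4. The CCl4-injected libraries of both diets and western diet + oil 2 then lay below all 3 controls. The FPKM sum ranged from 514832 to 612747, the lowest value above 0 from 0.252 to 0.318 and the genes above 0 from 12531 to 14843 per library; no fragment counts were used, so the depth is unknown.

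Nuclear members differed between libraries of the same group, and mostly in the same direction. Taking each gene's log2(FPKM + 1) minus its mean over the 8 libraries, the median nuclear member was at 0.20, -0.16 and -0.44 in normal diet + oil 1, 2 and 3, at -0.01 and 0.19 in western diet + oil, at 0.07 and 0.20 in normal diet + CCl4 and at -0.03 in western diet + CCl4. In 77 of the 90 nuclear members the lowest of the 8 libraries was normal diet + oil 3, and 86 were higher in normal diet + oil 1 than in normal diet + oil 3, by a median of 0.64 on the log2 scale. The 13 mitochondrial genes did not share this order: 7 were higher in control library 1 than in library 3, with a median difference of 0.04. Between the western diet + oil libraries, 78 of 90 nuclear members were higher in library 2 (median 0.22), and 11 of 13 mitochondrial genes were higher in library 1 (median 0.35).

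**Figure D2:**
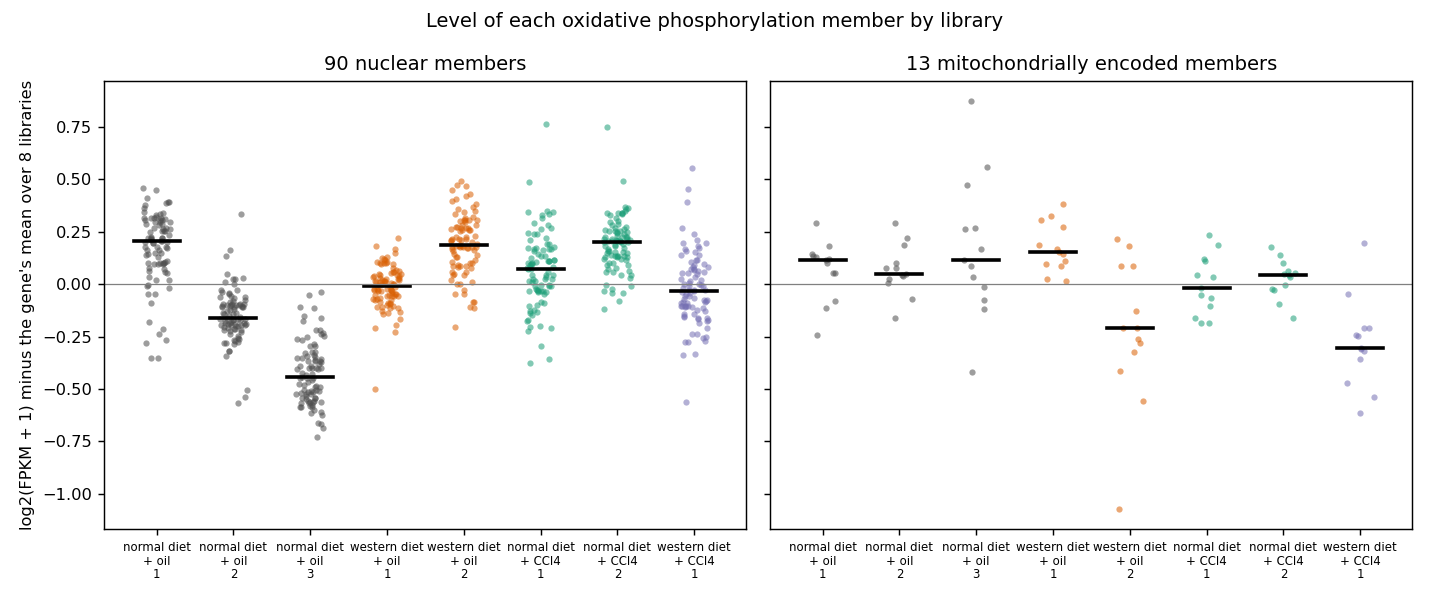
Each point is a member, placed by its log2(FPKM + 1) minus its own mean over the 8 libraries, for nuclear members (left) and mitochondrially encoded members (right); black bars are medians and colours mark the groups. The nuclear median runs from 0.20 in normal diet + oil 1 to -0.44 in normal diet + oil 3, and the mitochondrial median is lowest in western diet + CCl4 at -0.30.

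The median of each complex followed that order in the controls. Median FPKM of the nuclear subunits in normal diet + oil 1, 2 and 3 was 77.7, 61.9 and 47.5 for complex I, 172, 131 and 98.9 for complex III, 279, 204 and 161 for complex IV and 195, 161 and 125 for complex V. The median of complex II, the succinate dehydrogenase, varied less, at 93.8, 89.4 and 86.4, but it hides differences between its 4 genes. Gene by gene, its median difference between control libraries 1 and 3 was 0.37 on the log2 scale, against 0.57 to 0.77 in the other complexes. Sdhb, Sdhc and Sdhd followed the order, and Sdha did not. The accessory subunits of complex I, mostly small proteins around the core, differed between control libraries 1 and 3 by a median of 0.75 on the log2 scale, and the 7 nuclear core subunits by 0.49. Within complex V, the same difference was 0.69 for the 12 nuclear Fo-side genes and 0.44 for the 5 F1 genes. The spread within groups (residual SD of log2 values) had a median of 0.27 over nuclear members, 0.17 over mitochondrial members and 0.22 over all genes tested. Over the whole series, the highest library was under 2 times the lowest in 85.4% of members, against 48.0% of all genes tested. The comparison was not matched for expression level.

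Transcript length moved with these library differences. Nuclear members have short transcripts, with a median of 849.5 bases against 2381 bases for all genes tested. Among all genes tested with transcripts under 1000 bases, the median deviation was 0.05, -0.16 and -0.39 in normal diet + oil 1, 2 and 3 and 0.02 and 0.23 in western diet + oil 1 and 2. Among those of 3000 bases and over it was -0.19, -0.05 and -0.11, and 0.10 and -0.05. The median gene under 1000 bases was thus low in normal diet + oil 3 and high in western diet + oil 2. The 8 mitochondrial genes under 1000 bases were mixed. The genes mt-Nd3, mt-Nd6, mt-Co2 and mt-Co3 were also lower in normal diet + oil 3 than in western diet + oil 2. The opposite order was seen for mt-Nd4l, mt-Atp8, mt-Atp6 and mt-Nd1, and also for the longest mitochondrial gene, mt-Nd5 (1824 bases). Nuclear members of both length classes kept the control order. The median deviation in normal diet + oil 1, 2 and 3 was 0.25, -0.17 and -0.50 for those under 1000 bases. For those of 1000 bases and over it was 0.09, -0.11 and -0.36. Across the 90 nuclear members, Spearman's rho between deviation and length was -0.48, 0.26 and 0.45 in normal diet + oil 1, 2 and 3. It was 0.15 and -0.32 in western diet + oil 1 and 2, 0.28 and 0.24 in normal diet + CCl4 and -0.37 in western diet + CCl4. The part of length in the members' differences was not tested.

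**Figure D3:**
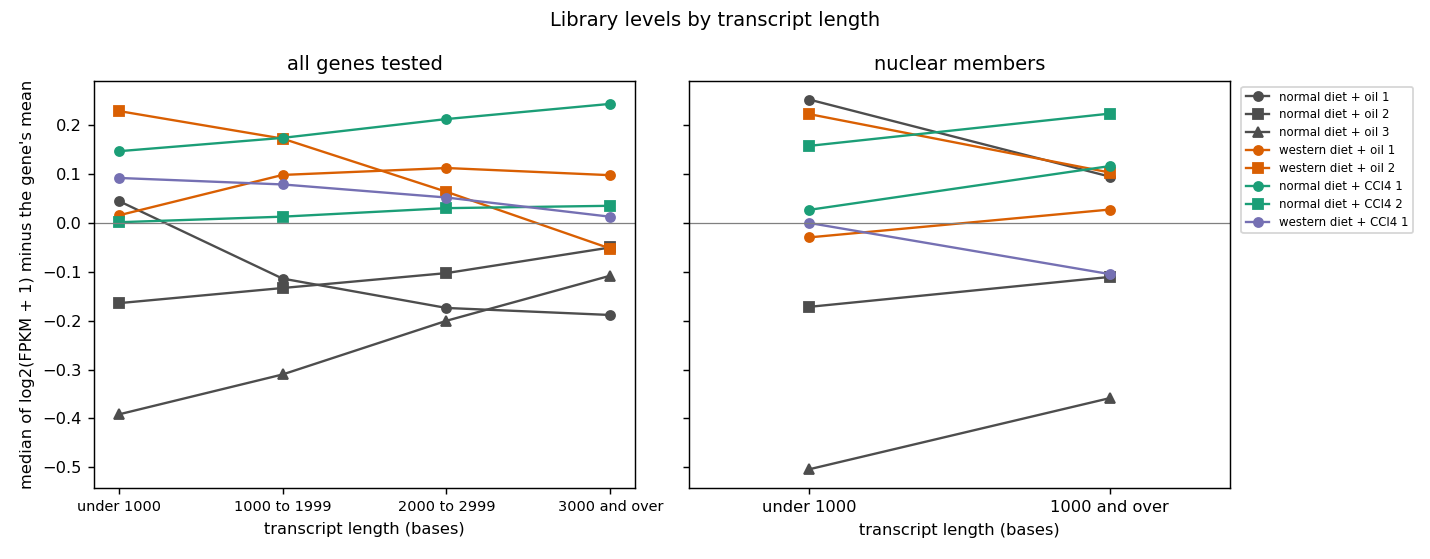
Lines give, for each library, the median of log2(FPKM + 1) minus the gene's mean, for 4 classes of transcript length over all genes tested (left) and 2 classes over the nuclear members (right). Normal diet + oil 3 is at -0.39 for genes under 1000 bases and -0.11 for those of 3000 bases and over, and western diet + oil 2 goes from 0.23 to -0.05.

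The western diet with oil was compared with normal diet with oil to ask how diet alone relates to the pathway. With limma, a linear model with moderated variances, on log2(FPKM + 1), 0 of the 103 members passed an adjusted p of 0.05, against 4.41% of all genes tested, and 1 member had an unadjusted p under 0.05, against 23.3%. Fold changes were above 0 in 87 of 90 nuclear members with a median of 0.21, beside 0.22 for all genes tested, of which 76.7% were above 0; after median-of-ratios scaling, which sets each library's factor from its median gene, the nuclear median was -0.059. The mitochondrial median was -0.15, with 4 of 13 genes above 0 (mt-Co2, mt-Co3, mt-Nd3 and mt-Nd6), and -0.43 after median-of-ratios scaling, but it was 0.11 without western diet + oil 2. That scaling moves the median of all genes from 0.22 to 0.00 in this comparison, from 0.26 to 0.00 for CCl4 and from 0.19 to 0.01 for both treatments, so member values are best read against the median of all genes. Nothing in the labels says that the libraries are separate animals, so each p measures the spread between these libraries, and a p above the threshold does not show that a member did not differ.

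Cox7a2l, a paralog of the complex IV subunit gene Cox7a2, had the largest positive log2 difference of a member with the diet. Its FPKM was 59.0, 56.6 and 46.7 in normal diet + oil, 72.6 and 87.6 in western diet + oil, 70.7 and 65.0 in normal diet + CCl4 and 88.1 in western diet + CCl4. All treated libraries were above the 3 controls. The log2 difference for the diet was 0.56 ± 0.19 (SE; limma adjusted p = 0.131), and 0.29 after median-of-ratios scaling. Atp5g2, one of the genes for the same c subunit of the complex V rotor, was at 70.7, 58.2 and 50.4 in normal diet + oil and at 71.6 and 87.8 in western diet + oil. Its groups did not overlap either, though control library 1 and western diet + oil 1 were nearly level, and its log2 difference was 0.42 ± 0.20 (limma adjusted p = 0.267). Ndufa12 and Ndufa10, accessory subunits of complex I, had log2 differences of 0.51 and 0.43, between those of Cox7a2l and Atp5g2. In all, 13 members were higher in both diet libraries than in every control, against 40.7% of all genes tested, and 3 were lower, against 5.18%.

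CCl4 with normal diet was compared with normal diet with oil to ask how the toxicant alone relates to it. With limma, 0 of the 103 members passed an adjusted p of 0.05, against 1.42% of all genes tested, and 9 had an unadjusted p under 0.05, against 22.8%. The nuclear median was 0.27, beside 0.26 for all genes tested, with 86 of 90 members above 0 against 83.9% of all genes, and it was -0.056 after median-of-ratios scaling. The mitochondrial median was -0.10, with mt-Nd1 alone above 0, and -0.43 after that scaling. No overlap between the groups was seen for 26 members that were higher, against 41.8% of all genes tested, and for 3 that were lower, against 3.8%. Both comparisons share the 3 control libraries.

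The members with unadjusted p under 0.05 under CCl4 came from several parts of the machinery. Their number depended on the scaling: 9 became 1 with median-of-ratios scaling and 3 with Mup genes removed. Over all 11514 genes tested the count fell as well, from 2621 to 1529 with median-of-ratios scaling. Ndufs1, the largest iron-sulfur subunit of complex I, was at 20.9, 22.9 and 22.9 FPKM in normal diet + oil, 26.8 and 21.4 in western diet + oil, 31.7 and 31.5 in normal diet + CCl4 and 22.9 in western diet + CCl4. Both CCl4 libraries on normal diet were above all other libraries, and the log2 difference from control was 0.49 ± 0.17 (limma adjusted p = 0.16). After median-of-ratios scaling, the highest such difference among the nuclear core subunits of complex I was 0.17. Atp5b was at 332.8, 337.7 and 321.2 in normal diet + oil, 414.1 and 435.3 in western diet + oil, 491.0 and 451.5 in normal diet + CCl4 and 344.9 in western diet + CCl4. The single-treatment libraries were above the controls and the western diet + CCl4 library lay close to them. For CCl4 the log2 difference was 0.51 ± 0.17 (limma adjusted p = 0.161). With median-of-ratios scaling, the highest CCl4 difference among the F1 genes, which include Atp5b, was 0.18. Unlike most nuclear members, Ndufs1 and Atp5b varied little among the 3 controls.

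Assembly factors of complex I were among them. Ndufaf5, a hydroxylase acting on a core subunit, was at 2.29, 2.46 and 2.71 FPKM in normal diet + oil, 2.75 and 3.86 in western diet + oil, 4.88 and 3.85 in normal diet + CCl4 and 3.39 in western diet + CCl4. Every treated library exceeded the controls, and the log2 difference for CCl4 was 0.62 ± 0.17 (limma adjusted p = 0.126, the lowest of any member). Ndufaf4, whose promoter is printed above, was at 5.75, 8.02 and 5.92 in normal diet + oil, 6.01 and 7.05 in western diet + oil, 8.69 and 12.8 in normal diet + CCl4 and 5.48 in western diet + CCl4. The CCl4 libraries on normal diet were highest, with a log2 difference of 0.62 ± 0.21 (limma adjusted p = 0.161). With median-of-ratios scaling, the highest CCl4 difference among the assembly factors was 0.36. Cox7a1 had the largest log2 difference, 0.71 ± 0.29, at a low level of 1.37 to 4.95 FPKM over the 8 libraries, and the groups overlapped. Its liver counterpart Cox7a2 ranged from 99.4 to 172 FPKM. Other members with unadjusted p under 0.05 included Ndufa12 (0.70), Atp5f1 (0.51) and Ndufa4l2 (0.46).

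Both treatments together were available in 1 library, whose spread limma takes from the other groups. Against normal diet + oil, 0 of the 103 members passed an adjusted p of 0.05, against 0.929% of all genes tested, and 3 had an unadjusted p under 0.05, against 15.3%. The nuclear median was 0.09, beside 0.19 for all genes tested, with 61 of 90 members above 0 against 72.2% of all genes, and it was below 0 with other scalings (-0.14 with median-of-ratios, -0.062 with Mup genes removed) and without normal diet + oil 3 (-0.043). The mitochondrial median was -0.37 and remained below 0 under these scalings (-0.60 and -0.53), with mt-Nd3 alone above 0. This library was below all 3 controls in 11 of the 13 mitochondrial genes and in 8 of the 90 nuclear members. Over all 103 members that makes 19, or, for the opposite direction, 8 above all controls, against 13.4% and 51.5% of all genes tested.

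Ndufa4l2, a paralog of Ndufa4 known as a hypoxia-responsive gene, was at 0.843, 1.011 and 0.840 FPKM in normal diet + oil, 1.23 and 1.82 in western diet + oil, 1.97 and 1.28 in normal diet + CCl4 and 2.22 in western diet + CCl4. All treated libraries exceeded the controls at these low levels, and the log2 difference for both treatments was 0.77 ± 0.24 (limma adjusted p = 0.196), on a log2(FPKM + 1) scale that understates changes of low genes. Cox7a2l, with the values above, had a log2 difference of 0.70 ± 0.24 (limma adjusted p = 0.223). The assembly factors went apart: Ndufaf7 was at 4.90, 6.33 and 4.23 in normal diet + oil and 9.41 in western diet + CCl4, and Ndufaf6 at 10.8, 6.51 and 6.75 against 4.83. Their log2 differences were 0.77 ± 0.30 and -0.60 ± 0.27 (limma adjusted p = 0.273 and 0.358).

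**Figure D4:**
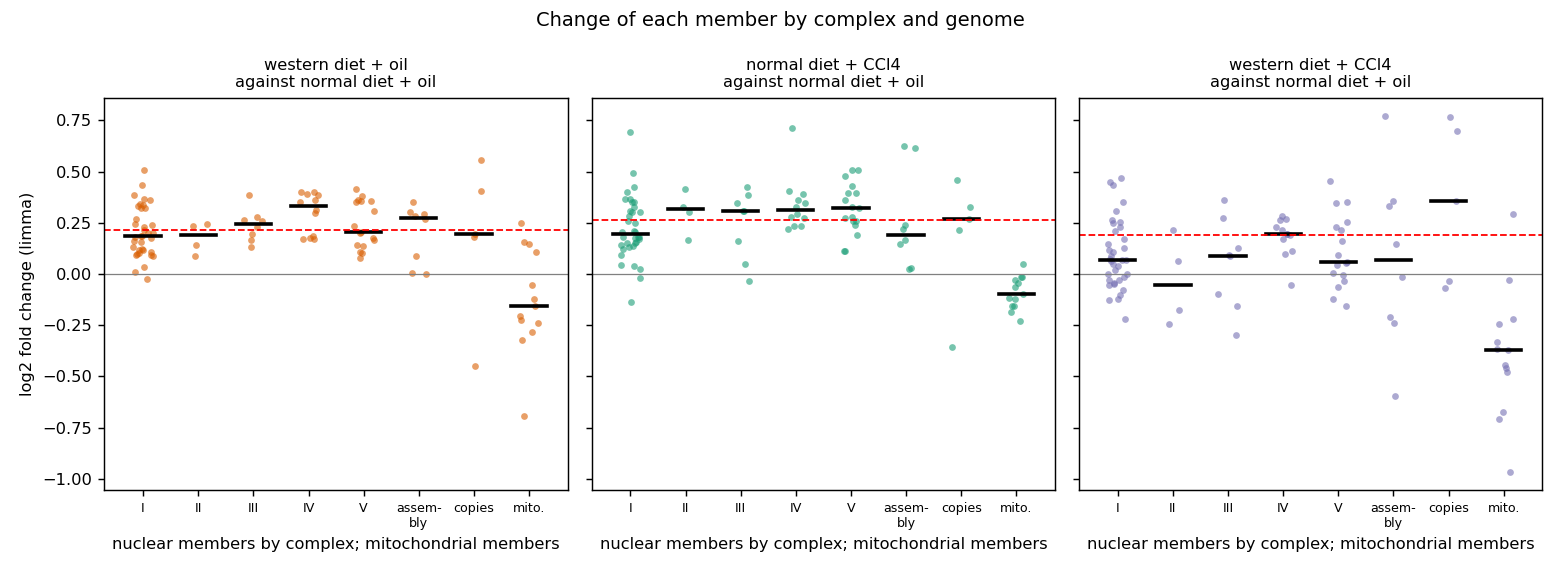
Each point is a member's log2 fold change (limma) against normal diet + oil, for western diet + oil, normal diet + CCl4 and western diet + CCl4; nuclear members are split by complex, assembly factors and copies or paralogs, black bars are group medians and the red dashed line is the median of all genes tested. The mitochondrial medians of -0.15, -0.10 and -0.37 lie below that line; the first is above 0 without western diet + oil 2, and the nuclear medians of 0.21, 0.27 and 0.09 turn negative with median-of-ratios scaling.

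The mitochondrial genes differed among themselves in how far they moved. The gene mt-Nd4l, a small membrane subunit of complex I, was at 753.7, 998.9 and 1492 FPKM in normal diet + oil, 1064 and 387.2 in western diet + oil, 926.8 and 850.0 in normal diet + CCl4 and 531.7 in western diet + CCl4, a 3.85-fold range. For mt-Nd5, a proton-pumping core subunit, the values were 1094, 1475 and 1910, then 1599 and 970, then 1523 and 1211, and 892. For mt-Atp8, a small subunit of complex V, they were 2995, 3677 and 4382, then 3962 and 2145, then 3255 and 3279, and 2278. All 3 genes were highest in normal diet + oil 3, where nuclear members were lowest, and low in western diet + oil 2 and western diet + CCl4. The gene mt-Nd3, also of complex I, went the other way, with 1134, 827.8 and 693.1 in normal diet + oil, 984.3 and 1076 in western diet + oil, 813.0 and 907.0 in normal diet + CCl4 and 1063 in western diet + CCl4. It was lowest in normal diet + oil 3, as most nuclear members were. For mt-Nd4l, 1 western diet + oil library lay within the range of the controls and the other below it, and the log2 difference for the diet was -0.69 ± 0.44 (limma adjusted p = 0.388).

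The most abundant mitochondrial transcripts, mt-Co1 and mt-Cytb, varied less than mt-Nd4l, mt-Nd5 and mt-Atp8. Their ranges were 1.45-fold and 1.43-fold. For mt-Co1 the values were 11838, 11867 and 12399 FPKM in normal diet + oil, 11813 and 8816 in western diet + oil, 11326 and 12508 in normal diet + CCl4 and 8634 in western diet + CCl4. For mt-Cytb they were 7905, 7427 and 7671, then 8736 and 6243, then 6973 and 7097, and 6092. Western diet + oil 2 and western diet + CCl4 were the lowest libraries for both genes, and the other western diet + oil library was near or above the controls. The log2 differences of western diet + CCl4 from control were -0.48 ± 0.27 for mt-Co1 and -0.33 ± 0.28 for mt-Cytb (limma adjusted p = 0.454 and 0.616). For mt-Nd1 this difference was -0.37, for mt-Nd2 -0.37, for mt-Nd4 -0.46, for mt-Nd6 -0.25, for mt-Co2 -0.22, for mt-Co3 -0.03 and for mt-Atp6 -0.44. The gene mt-Nd6, which alone is transcribed from the other strand, varied between 2500 and 3357 FPKM.

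**Figure D5:**
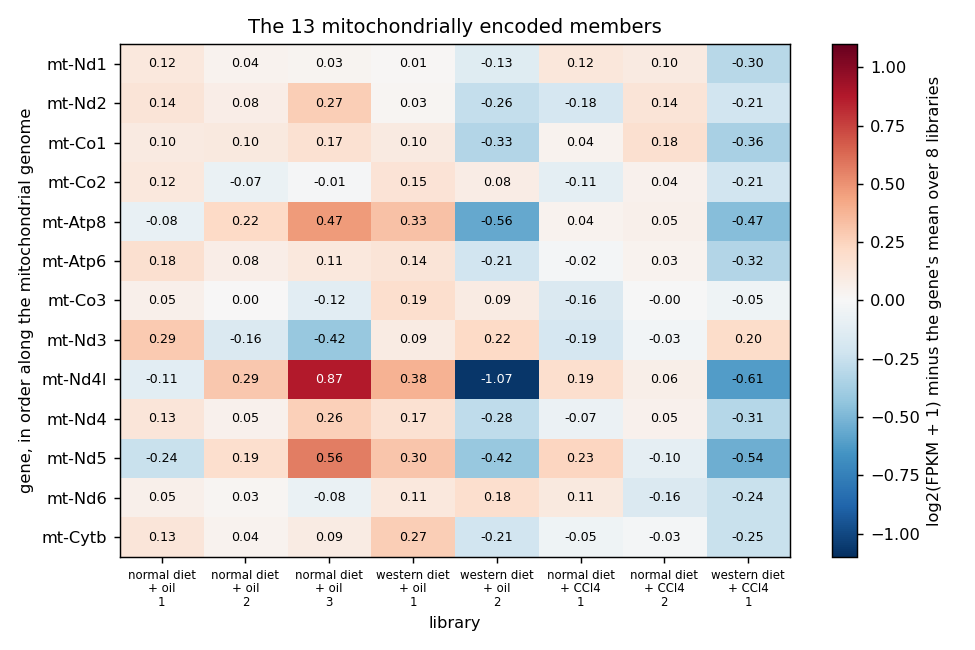
Cells give log2(FPKM + 1) minus the gene's mean over the 8 libraries for the 13 mitochondrially encoded members, in their order along the mitochondrial genome. mt-Nd4l reaches 0.87 in normal diet + oil 3 and -1.07 in western diet + oil 2, and mt-Nd3 is at -0.42 in normal diet + oil 3.

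A factor that scales a whole library cancels in the difference between the mitochondrial and the nuclear median. On the log2 scale this difference was -0.36 under the diet, -0.37 under CCl4 and -0.46 under both. Over the alternative runs it ranged from -0.63 to -0.017, from -0.52 to -0.18 and from -0.63 to -0.34. Many of these runs say nothing about its stability. Library scaling could hardly move it, and leaving out a library from outside the comparison could not. The value nearest 0 for the western diet came without western diet + oil 2, and the values nearest 0 for CCl4 and for both treatments without normal diet + oil 3 (for CCl4, the same value with the replicate block). The 3 differences from control share the same control libraries, and they are descriptions of medians without a test. Libraries of the same group differed in this way too. The median of normal diet + oil 1 minus 3 was 0.04 for mitochondrial and 0.64 for nuclear members. For western diet + oil 1 minus 2 these medians were 0.35 and -0.22. In bulk tissue, fewer cells of a type and less RNA per cell cannot be told apart.

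Direct comparison of western diet + oil with normal diet + CCl4, which share no library, gave small differences. With limma, 0 of the 103 members passed an adjusted p of 0.05, against 0.617% of all genes tested, and 1 had an unadjusted p under 0.05 (Ndufaf4, log2 difference -0.62), against 11.1%. In 39 of the 103 members the value was above 0, against 44.8% of all genes. Medians were -0.05 for nuclear and -0.05 for mitochondrial members, beside -0.04 for all genes tested; with median-of-ratios scaling they were 0.01 for each. Libraries did not overlap for 6 members that were higher with the diet and 22 that were lower, against 17.1% and 22.8% of all genes tested. Uqcr11, a small complex III subunit, was highest at 0.42, with 262 and 340 FPKM under the diet and 199 and 249.4 under CCl4.

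The interaction of diet and CCl4, which asks whether both together differ from the sum of each, was likewise past the threshold for 0 of the 103 members (limma), against 0.0608% of all genes tested, and 4 had an unadjusted p under 0.05, against 9.78%. These were Atp5b (-0.81), Ndufaf4 (-0.84), Uqcrc2 (-0.71) and Ndufv1 (-0.65). Uqcrc2 is an accessory subunit of complex III, though named core protein 2, and Ndufv1 is the flavoprotein of complex I that oxidises NADH. Values were above 0 for 6 of the 103 members, against 18.9% of all genes. The median was -0.40 for nuclear members and -0.17 for mitochondrial ones, beside -0.29 for all genes tested, and with median-of-ratios scaling -0.04 and 0.20 beside 0.00. This term rests on the single western diet + CCl4 library.

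Single subunits of complexes II, III and IV differed in their order over the libraries. Sdha, the flavoprotein of succinate dehydrogenase, was at 87.8, 94.98 and 91.1 FPKM in normal diet + oil, 109 and 86.5 in western diet + oil, 97.3 and 108 in normal diet + CCl4 and 77.0 in western diet + CCl4. Sdhb, its iron-sulfur subunit, was at 144.5, 130.2 and 105.8, then 126.9 and 151.9, then 132.1 and 189.8, and 111.4. Uqcrc2 was at 76.0, 73.5 and 67.4, then 89.1 and 73.9, then 89.9 and 99.6, and 64.7. Sdha and Uqcrc2 were lowest in western diet + CCl4, and Sdhb in normal diet + oil 3. Cox4i1 of complex IV showed the control order in full, with 465.3, 331.4 and 269.7 in normal diet + oil, 391.0 and 464.0 in western diet + oil, 392.3 and 424.5 in normal diet + CCl4 and 390.3 in western diet + CCl4. Its groups overlapped in all 3 comparisons with control.

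The c subunit of complex V comes from 3 genes with the same mature protein, and their proportions differed little between libraries. Atp5g3 gave 59.2 to 67.9% of the summed c subunit FPKM, Atp5g1 18.01 to 24.6% and Atp5g2 12.5 to 18.01%. The Atp5g2 share was 12.5, 14.1 and 15.3% in normal diet + oil, 14.6 and 18.01% in western diet + oil, 13.9 and 13.6% in normal diet + CCl4 and 17.0% in western diet + CCl4. Both western diet + oil 2 and western diet + CCl4 were above the controls, and the other western diet + oil library was among them.

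Of 90 other genes listed for the pathway, 84 were tested: electron carriers and exchange proteins, further assembly factors, mitochondrial DNA expression, regulators and the TCA cycle. Ucp2, an inner membrane carrier abundant in macrophages, was the only one that passed, and it rose with the western diet. Its FPKM was 4.09, 5.80 and 3.72 in normal diet + oil, 15.7 and 29.5 in western diet + oil, 18.5 and 5.73 in normal diet + CCl4 and 18.995 in western diet + CCl4, a log2 difference of 2.04 ± 0.45 for the diet (limma adjusted p = 0.0465). The summed FPKM of 11 Kupffer cell and macrophage markers moved with it: it was 82.1 to 148 in normal diet + oil, 577 and 1097 in western diet + oil, 437 and 156 in normal diet + CCl4 and 477 in western diet + CCl4. Of these markers, 10 rose with the diet and none was at 0. In other lists, 3 of 5 erythroid, 3 of 6 sinusoidal endothelial and 1 of 7 stellate markers rose too. Of 4 adipose markers, Adipoq, Plin1 and Lep were at 0 in all 8 libraries, and the only one tested, Cfd, rose. Among those tested, 0 of 8 hepatocyte, 0 of 3 cholangiocyte and 0 of 2 B and T cell markers rose. The part of these cell types in the Ucp2 result was not tested. For the diet, CCl4 and both, the median log2 differences were 0.23, 0.27 and 0.13 for the further assembly factors. They were 0.14, 0.26 and 0.12 for mitochondrial DNA expression and 0.09, 0.18 and -0.10 for the regulators. All genes tested had 0.22, 0.26 and 0.19. Of the 7 regulators tested, 4 were above 0 with the diet. All 14 tested carrier genes and all 13 TCA cycle genes had diet differences above 0, with medians of 0.29 and 0.27 beside 0.22 for all genes tested. For CCl4 the medians were 0.42 and 0.35 beside 0.26, 0 of the 84 genes passed with limma, and 22 had an unadjusted p under 0.05, against 22.8% of all genes tested. For both treatments the medians were 0.17 and 0.11 beside 0.19, again 0 passed with limma, and 4 had an unadjusted p under 0.05, against 15.3% of all genes tested.

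Among the regulators, Esrra, a nuclear receptor that acts on respiratory genes, was at 6.89, 8.33 and 6.51 FPKM in normal diet + oil, 8.92 and 11.8 in western diet + oil, 14.03 and 13.5 in normal diet + CCl4 and 11.2 in western diet + CCl4. All treated libraries were above the controls, with a log2 difference for CCl4 of 0.85 ± 0.18 (limma adjusted p = 0.0683). Esrra was named after its values were seen, as was Tfam, the packaging and transcription factor of mitochondrial DNA. Tfam was at 5.68, 5.63 and 4.96 in normal diet + oil, 6.21 and 4.94 in western diet + oil, 7.75 and 5.82 in normal diet + CCl4 and 5.53 in western diet + CCl4. Its groups overlapped with the controls except under CCl4 on normal diet, where the log2 difference was 0.27 ± 0.17 (limma adjusted p = 0.352).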

How the data were processed

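Per the labels' protocols, TruSeq Stranded mRNA libraries were made from mouse liver RNA; there were 8. The authors deposited 1 table of FPKM values per gene and library. The submitters' processing notes name FastQC 0.11.9, cutadapt 3.7 and HISAT2 2.2.1, besides StringTie 2.1.0, on the build GRCm38. The annotation and strand setting are not given in the sources used here. FPKM is relative to each library's total, so abundant genes lower the values of the others. Groups were read from the sample labels.

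The 11514 genes that reached 1 FPKM in 2 or more libraries were tested on log2(FPKM + 1) by limma 3.58.1 in R 4.3.3 (linear fit, contrasts and moderated variances with a mean trend). The 4 groups shared 1 fit with 4 residual degrees of freedom, and p-values were Benjamini-Hochberg adjusted over all genes. The fit was tested on simulated data. Each ± beside a log2 difference is its standard error. No pair of libraries held identical values.

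Genes were named by a rule: all mitochondrial members, a list of defining nuclear subunits and isoforms, the largest and smallest fold changes per comparison, members at the edge of the FPKM rule, and pathway genes that passed. Those with an unadjusted p under 0.05 and a few more were added after their values were seen. The members and lists were chosen with earlier results of these data known. Alternatives were another pseudocount, filter, library scaling or set of groups in the fit, the replicate number as a block, and leaving out each library. Transcript lengths and gene types came from GENCODE M21, which held a model for all 103 members.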

Additional observations from a re-analysis of the deposited data

How the results depend on the processing

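The count of members passing was 0 in every comparison and alternative, with 1 exception: with the mitochondrial genes removed and the libraries rescaled, 1 member passed under CCl4 (Ndufaf5, log2 difference 0.78, limma adjusted p = 0.0482). Over the alternatives, the lowest adjusted p of a member ranged from 0.0815 to 0.377 for the western diet, from 0.0482 to 0.33 for CCl4, from 0.0966 to 0.415 for both, from 0.165 to 0.817 for diet against CCl4 and from 0.196 to 0.759 for the interaction. The number of members with an unadjusted p under 0.05 ranged from 0 to 16, 1 to 31, 1 to 6, 0 to 3 and 1 to 12 in the same order. The count over all 11514 genes tested moved with the setting too. For CCl4 it was 2621 in the main fit and 1529 with median-of-ratios scaling, and for the western diet 2681 and 2092. The member counts over the alternatives are given without that background, so they do not show a response particular to the members. The nuclear median turned negative with median-of-ratios scaling (-0.059 under the diet, -0.056 under CCl4, -0.14 under both). For both treatments it also did so with Mup genes removed (-0.062) and without normal diet + oil 3 (-0.043; from -0.043 to 0.25 over the libraries left out). The mitochondrial median for the western diet was 0.11 without western diet + oil 2 (from -0.33 to 0.11 over the libraries left out). The cause of these turns was not tested.

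The main fit did not pair libraries by the replicate numbers of the titles. Deviations of same-numbered libraries from their group means correlated at -0.279 to -0.014. In a group of 2 libraries these deviations mirror each other, so the correlations cannot exclude pairing. With the replicate block, 0 members passed in each comparison, and the nuclear median for both treatments was -0.043. With Mup genes left out of the library sum, the mean mitochondrial share was 13.7% in normal diet + oil and 11.6% in normal diet + CCl4, and the mean nuclear share 2.08, 2.22 and 2.25% in normal diet + oil, western diet + oil and normal diet + CCl4. Without the mitochondrial rRNA and tRNA genes in the sum, the mitochondrial share in normal diet + oil was 10.4%. Without mt-Nd6, mt-Nd4l and mt-Atp8, the mitochondrial to nuclear ratio in normal diet + CCl4 was 4.56. Leaving out the only western diet + CCl4 library gives no value for its comparisons. The depth is unknown, groups held 1 to 3 libraries, and a missed threshold does not show that a member did not differ.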

Other observations

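Ndufb1-ps, left out because of its name, carries the symbol of the complex I accessory subunit NDUFB1 and is annotated as a bidirectional promoter lncRNA in GENCODE M21. Its FPKM was 80.9, 48.4 and 39.6 in normal diet + oil 1, 2 and 3, 52.4 and 61.8 in western diet + oil, 62.7 and 66.7 in normal diet + CCl4 and 55.6 in western diet + CCl4. The highest and the lowest of the 8 libraries were both controls, in the order that most nuclear members had among them. Of the 9 rows left out for such names, 5 reached the FPKM minimum.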
